A study of Mus musculus with 16 samples.

Results

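Nuclear genes for subunits of respiratory chain complexes II, III and IV and of the ATP synthase (complex V) were followed in 16 RNA libraries of mouse germline stem cells. The 46 genes were taken by symbol from a table of 21924 genes: Sdha, Sdhb, Sdhc, Sdhd and Cyc1, and every symbol starting with Uqcr, Cox5, Cox6, Cox7, Cox8 or Atp5. They comprised 4 genes of complex II, 9 of complex III, 16 of complex IV and 17 of complex V. The symbol rule itself uses no expression value, although these genes were singled out with earlier results of these data known. Cox4i1 and Cox4i2, the alternative forms of subunit IV of complex IV, fell outside the symbol rule and are given for context.

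Complex II (succinate dehydrogenase) and complex III (cytochrome bc1) pass electrons from succinate and ubiquinol on to cytochrome c, complex IV (cytochrome c oxidase) hands them to oxygen, and complex V uses the proton gradient to make ATP. Complexes III, IV and V also hold proteins made from the mitochondrial genome, whereas complex II is nuclear throughout. Several subunits of complex IV exist as a widely expressed form and a tissue form: Cox6a2, Cox7a1 and Cox8b are known from heart and skeletal muscle, and Cox6b2, Cox7b2 and Cox8c from testis.

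Germline stem cells are spermatogonial stem cells in culture. They grew here with GDNF and FGF2 on a layer of mouse embryonic fibroblasts, so each library can hold feeder RNA too. The 8 groups had 2 libraries each. They were DBA/2 wild type at 20% and at 1% oxygen, wild type and labelled Hif1a KO cells of a mixed 129 x C57BL/6 background (called the Hif1a line below) each at 20% and at 1% oxygen, and C57BL/6 wild type and labelled Top1mt KO cells, both at 1% oxygen only. The Hif1a KO label stands for treatment with AxCANCre, a virus that carries Cre, on the day hypoxia began. Whether any other group received a virus, and how the Top1mt KO was made, was not stated by the submitters. The series text gives 2 days at 1% oxygen, but library names hold "6d" for the Hif1a line at 1% and "2d" for the C57BL/6 groups, with no meaning stated. In the Hif1a line the 1% libraries also carry a letter B that the 20% libraries lack, so a difference in handling and oxygen cannot be told apart there. Nothing states that replicates were separate cultures, and p-values therefore measure only the spread between these libraries, which may be technical.

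Depth was 11942104 to 25659895 reads per library on the tabled genes, and values are CPM, reads per 1000000 of these. Hif1a itself read 117 and 118 CPM in the Hif1a-line wild type at 20% oxygen and 139 and 142 in the labelled KO, and at 1% oxygen 250.7 and 250.7 in wild type and 618 and 593 in the labelled KO. It stood higher, not lower, under the KO label. A count over the whole gene does not test the loss of an exon, and the label is used as a name only. Top1mt read 32.8 and 34.8 CPM in C57BL/6 wild type and 9.99 and 10.96 in the labelled Top1mt KO. The summed level of 24 fibroblast markers ranged from 6638 CPM in a DBA/2 library at 1% oxygen to 62574 CPM in a labelled Hif1a KO library at 1%. The sum of 16 germ cell markers ran the other way, from 6116 CPM in a DBA/2 library at 20% to 1975 in a labelled Hif1a KO library at 1%. No marker of either list was at 0 in every library, and the germ cell genes Ddx4 and Dazl were detected in all 16. Sums over 12 striated muscle, 8 testis somatic, 8 leukocyte and 8 spermatid markers stayed between 14.3 and 67.6 CPM. In such bulk RNA, fewer cells of a type and less RNA per cell cannot be told apart.

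Of the 46 genes, 44 passed the filter on low values (at least 1 CPM in at least 2 libraries). The pair that failed are muscle forms of complex IV subunits. Cox8b had 0 reads in every library, where a count of 0 allows up to 0.117 to 0.251 CPM. Cox6a2 had 0 to 16 reads per library.

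The medians of the 4 complexes lay near one another, while single genes ranged widely. Compared per kb of transcript over all libraries, the median gene reached 80.2 CPM per kb in complex II, 102 in complex III, 99.9 in complex IV and 145 in complex V. Atp5b, the catalytic beta subunit of the ATP synthase, stood highest at 518 CPM per kb. It was followed by Atp5o (OSCP, a stalk subunit) at 367, Uqcrh (the hinge protein of complex III) at 302, Cox6a1 at 284 and Cox6b1 at 251 CPM per kb. At the low end stood Cox7a1 at 16.5, Atp5l (subunit g) at 14.3, Cox8c at 10.5 and Atp5s, which RefSeq names Dmac2l, at 5.46 CPM per kb. Part of these levels is uncertain, since the labels do not say how reads shared with near-identical copies were counted. Atp5o shares 76.7% of its transcript with Gm5436 at 95% identity or more, and its symbol matches more than 1 annotated gene. For Atp5l the share was 72.2%, with 10 other genes, for Atp5h (subunit d) 71.3%, for Uqcrb 62.8% and for Cox5b 51%.

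**Figure D1:**
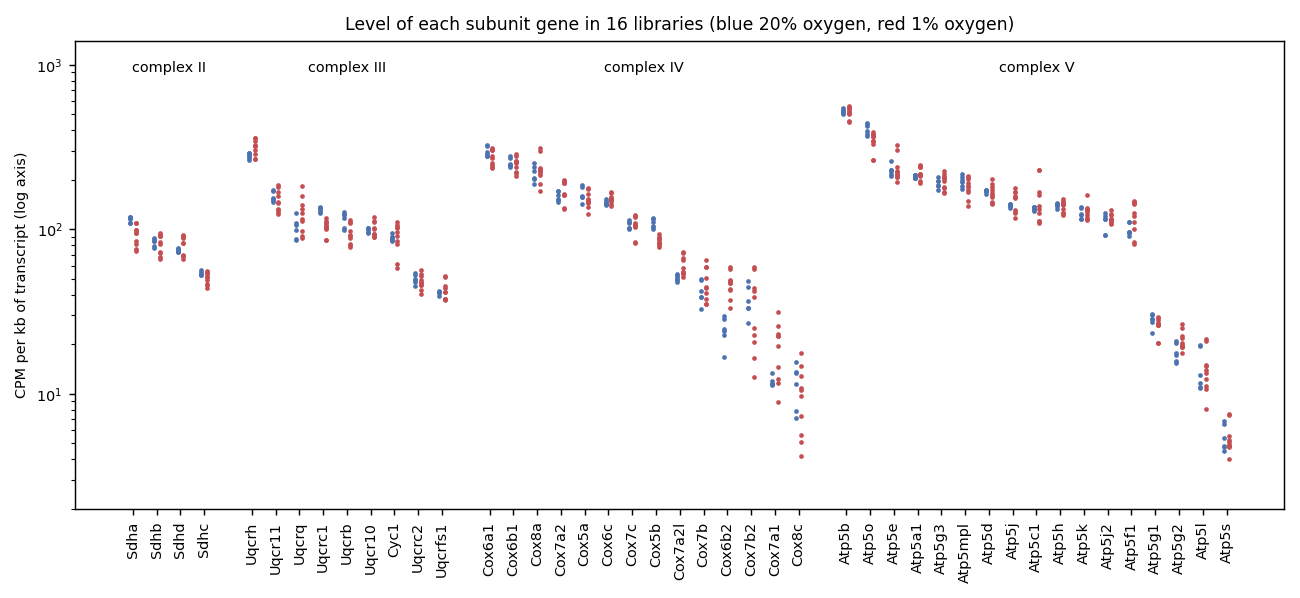
CPM per kb of transcript (log axis) for the 44 subunit genes that passed the filter, ordered within each complex, with 1 point per library, blue at 20% oxygen (6 libraries) and red at 1% oxygen (10 libraries). Atp5b, with a mean of 518 CPM per kb, stands highest, and the tissue forms Cox8c and Cox7a1, at 10.5 and 16.5, stand low in complex IV.

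Across the 8 groups, the highest group mean was at most 1.5 times the lowest for 26 of the 44 genes, between 1.5 and 2 times for 12, and over 2 times for 6. Those 6 were the tissue forms Cox7b2 (4.02 times), Cox8c (3.49), Cox6b2 (2.93) and Cox7a1 (2.78), together with Atp5l (2.26) and Atp5c1 (2.07). On CPM, the labelled Hif1a KO at 1% oxygen was the lowest group for 25 of the 44 genes and the highest for 3. All 46 genes together summed to 4744 and 4758 CPM there, against 5139 to 5887 CPM in the other 14 libraries.

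Much of that last difference depends on the scaling. CPM divides by all reads, while median-of-ratios scaling sets the typical gene level between libraries. With the latter, the mean subunit sum in the labelled Hif1a KO at 1% oxygen went from 4751, the lowest of all groups, to 5872, the highest. The next highest was then 5816 in the labelled Top1mt KO. From CPM to median-of-ratios scaling the median fold change of all 14841 genes tested went up by 0.31 on the log2 scale in the labelled Hif1a KO at 1% against 20% oxygen, by 0.23 in the labelled KO against wild type at 1%, by 0.24 in the difference between the oxygen responses of these genotypes, and by 0.11 in the difference between the wild type responses of the Hif1a line and DBA/2. In the other 6 comparisons it moved by less than 0.1 either way. Calls are therefore given under both. Fold changes are log2 differences of CPM + 1 from limma unless median-of-ratios scaling is named, and a gene is called at an adjusted p (Benjamini-Hochberg over all genes tested) under 0.05. A call is termed firm where it was made in the same direction on CPM, after median-of-ratios scaling and without each of the 16 libraries in turn, a rule chosen after seeing the data.

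**Figure D2:**
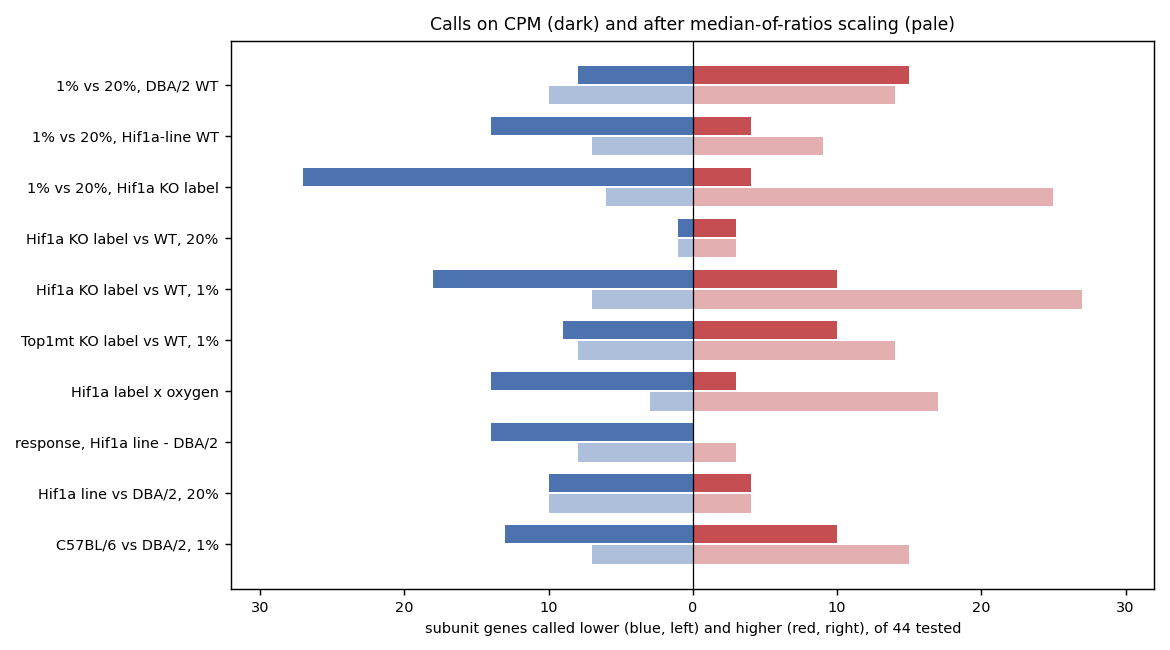
Number of the 44 tested subunit genes called higher and lower in each of the 10 comparisons, on CPM (dark bars) and after median-of-ratios scaling (pale bars). In the labelled Hif1a KO at 1% against 20% oxygen the split goes from 4 higher and 27 lower to 25 higher and 6 lower.

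The promoters of 4 genes are printed to show the letters beside their oxygen responses. Sdha and Uqcrc1 were called lower at 1% oxygen in all 3 oxygen comparisons under both scalings. Cox6b2 was called higher in all 3 under both, unlike its widely expressed partner Cox6b1. Each run of 300 bases goes from 250 bases before to 50 bases after the start site, 5′ to 3′ on the gene's strand, from RefSeq on GRCm38.p6. The windows are chr13:74350191-74350490 on the minus strand for Sdha, chr9:108936398-108936697 on the plus strand for Uqcrc1, chr7:4753045-4753344 on the minus strand for Cox6b2 and chr7:30626065-30626364 on the minus strand for Cox6b1. Capitals mark matches, on either strand, to the NRF1 motif, CCGGAAG (an ETS motif), AAGATGGCG (a YY1 motif), and ACGTG and GCGTG (core letters of hypoxia response elements).
Sdha: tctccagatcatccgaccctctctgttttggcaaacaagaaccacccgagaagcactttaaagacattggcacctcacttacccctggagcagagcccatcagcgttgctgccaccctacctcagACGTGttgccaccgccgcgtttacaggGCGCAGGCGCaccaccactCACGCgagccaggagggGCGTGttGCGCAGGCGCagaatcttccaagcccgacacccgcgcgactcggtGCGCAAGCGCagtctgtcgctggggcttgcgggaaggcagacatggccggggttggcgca
Uqcrc1: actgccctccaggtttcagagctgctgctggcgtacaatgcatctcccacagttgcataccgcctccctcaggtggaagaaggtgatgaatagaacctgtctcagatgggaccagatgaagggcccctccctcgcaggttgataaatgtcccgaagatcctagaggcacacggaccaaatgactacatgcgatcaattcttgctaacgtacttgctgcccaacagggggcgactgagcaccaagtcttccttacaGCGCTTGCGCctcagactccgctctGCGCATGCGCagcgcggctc
Cox6b2: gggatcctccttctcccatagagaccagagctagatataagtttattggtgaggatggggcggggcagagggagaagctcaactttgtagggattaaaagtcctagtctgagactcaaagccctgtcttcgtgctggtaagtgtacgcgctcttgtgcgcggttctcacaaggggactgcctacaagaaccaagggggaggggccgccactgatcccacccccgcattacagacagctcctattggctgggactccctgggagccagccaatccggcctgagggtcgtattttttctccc
Cox6b1: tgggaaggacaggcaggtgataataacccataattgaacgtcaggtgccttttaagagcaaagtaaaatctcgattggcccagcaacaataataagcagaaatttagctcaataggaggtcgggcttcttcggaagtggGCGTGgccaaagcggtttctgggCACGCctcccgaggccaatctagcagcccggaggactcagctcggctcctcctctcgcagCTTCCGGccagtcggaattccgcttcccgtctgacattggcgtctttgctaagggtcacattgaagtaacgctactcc

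NRF1 is a transcription factor known for its sites in promoters of respiratory genes. Its motif matched at 98, 55 and 10 bases before the Sdha start site, and at 5 and 30 bases after that of Uqcrc1, the latter on both strands. The Sdha window also held 1 ACGTG and 2 GCGTG. The Cox6b1 window held an ETS match 28 bases before its start site and 2 GCGTG. The Cox6b2 window held none of these 5 motifs, which says only that these letters are not in it. RefSeq promoters were matched for 36 of the 46 genes, 39 promoters in all. The NRF1 motif was in 25.6% of these 39 and in 4.6% of all 32851 promoters of the table, the ETS motif in 30.8% and 8.86%, the YY1 motif in 5.13% and 1.4%, ACGTG in 30.8% and 19.6%, and GCGTG in 56.4% and 32.4%. CCAAT, searched too but left in lower case, was in 53.8% and 37.4%, and the Cox6b2 window held it 3 times. GCGTG can overlap the NRF1 motif. The 10 subunit genes with an NRF1 match included Sdhd and Atp5c1, which rose firmly at 1% oxygen in DBA/2. They also included Atp5o and Cox6a1, which fell firmly there, while Cox5b, which fell firmly too, had none. Whether motifs and oxygen responses go together was not tested. A match is a description of letters and not a binding site.

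Low oxygen was compared with 20% oxygen in DBA/2 wild type and, within 1 background, in the wild type and the labelled KO of the Hif1a line. The subunit genes did not move as a block in any of these 3 comparisons. In DBA/2 wild type, 15 of the 44 were called higher (34.1%, against 31.8% of all genes) and 8 lower (18.2%, against 25.5%), with a median fold change of 0.10 beside 0.04 over all genes. In Hif1a-line wild type, 4 were called higher (9.09%, against 18.4% of all genes) and 14 lower (31.8%, against 34.6%), with a median of -0.09 in both, and after median-of-ratios scaling 9 higher (all genes 24.6%) and 7 lower (all genes 24.8%). In the labelled Hif1a KO, 4 were called higher (9.09%, against 25.2% of all genes) and 27 lower (61.4%, against 54.7%). After median-of-ratios scaling that turned to 25 higher (56.8%, against 40.1%) and 6 lower (13.6%, against 35.3%). The median there was -0.17 beside -0.29 over all genes on CPM, and 0.19 beside 0.02 after median-of-ratios scaling. Leaving out any 1 DBA/2 library lowered the count of falls there to between 3 and 5. In Hif1a-line wild type 2 were called higher without 20% replicate 2 or 1% replicate 1 and 8 lower without 20% replicate 1, and in the labelled KO 2 higher without 20% replicate 1 and 1 without 1% replicate 1. Firm calls numbered 11 higher and 3 lower in DBA/2 (all genes 21.3% and 17.8%), 2 and 7 in Hif1a-line wild type (11.8% and 21.1%), and 1 and 6 in the labelled KO (21.0% and 34.6%). Fibroblast markers moved differently between these comparisons: of 24, 5 were called higher and 13 lower in DBA/2, 18 and 2 in Hif1a-line wild type, and 24 and 0 in the labelled KO. Of 16 germ cell markers, 3 were called higher and 9 lower, 2 and 9, and 0 and 16. Their part in the subunit results was not tested.

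**Figure D3:**
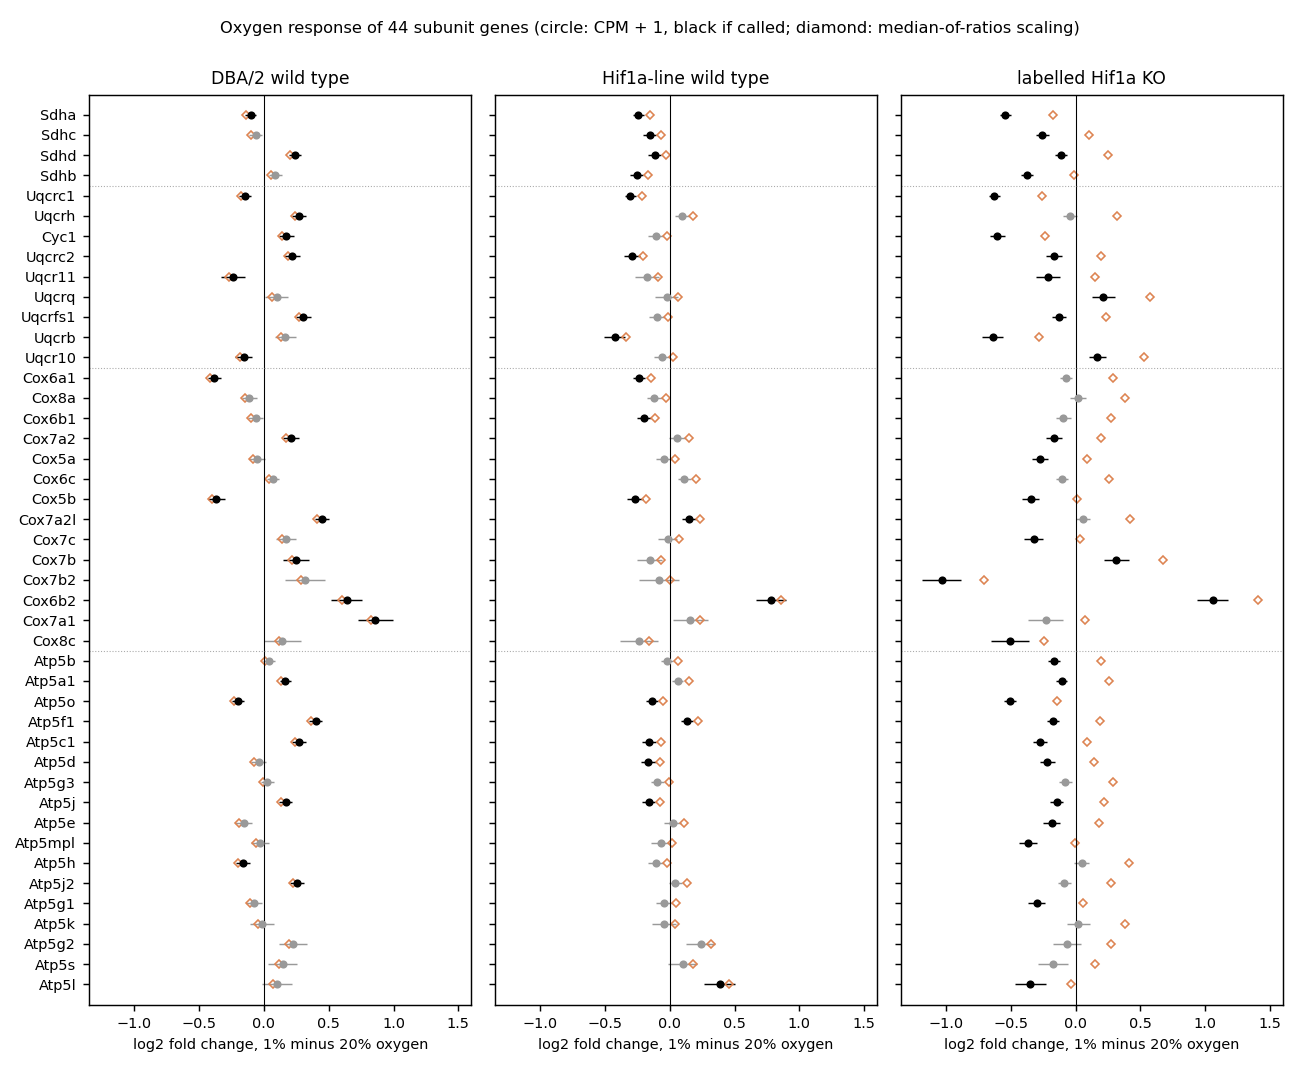
Log2 fold change at 1% against 20% oxygen for 44 subunit genes in DBA/2 wild type, Hif1a-line wild type and the labelled Hif1a KO. Circles with SE bars are from CPM + 1, black where called, and open diamonds are from median-of-ratios scaling. Cox6b2 lies to the right in all 3 panels, and the diamonds stand to the right of the circles in the labelled KO.

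In complex II, Sdha, the flavoprotein that oxidises succinate (chr13:74322254-74350280, GRCm38), was lower at 1% oxygen in each oxygen comparison. It read 343 and 337 CPM at 20% and 317 and 316 at 1% in DBA/2, 343 and 338 against 288 and 287 in Hif1a-line wild type, and 316 and 317 against 214 and 220 in the labelled KO. The groups did not overlap in DBA/2, in Hif1a-line wild type or in the labelled KO. The fold changes were -0.10 (SE 0.04, adjusted p = 0.039), -0.24 (SE 0.04, adjusted p = 5.9e-05) and -0.54 (SE 0.04, adjusted p = 2.7e-10). After median-of-ratios scaling they were -0.14, -0.15 and -0.18. The DBA/2 call ended without any 1 of the 4 DBA/2 libraries and without either Hif1a-line wild type library at 20%, with adjusted p up to 0.18.

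The other genes of complex II, the iron-sulfur subunit Sdhb and the membrane anchors Sdhc and Sdhd, were less uniform. Sdhd rose firmly in DBA/2, from 93.6 and 94.9 to 110 and 113 CPM (0.24, SE 0.05, adjusted p = 0.00027). Sdhb fell firmly in Hif1a-line wild type, from 97.2 and 100.2 to 81.7 and 83.2 CPM (-0.26, SE 0.05, adjusted p = 0.00019), and read 87.4 and 90.5 against 93.2 and 96.0 in DBA/2. On CPM, Sdhb (-0.37), Sdhc (-0.26) and Sdhd (-0.11) were called lower in the labelled KO, but after median-of-ratios scaling they stood at -0.01, 0.11 and 0.25, and Sdhd was then called higher. The CPM call of Sdhd there ended without either labelled KO library at 1%, without labelled KO 20% replicate 1 and without either DBA/2 library at 20%, with adjusted p up to 0.19.

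In complex III, the core protein Uqcrc1 (chr9:108936633-108949623) followed Sdha. It read 208 and 212 CPM at 20% and 186 and 193 at 1% in DBA/2, 223 and 223 against 180 and 182 in Hif1a-line wild type, and 218 and 225 against 143 and 143 in the labelled KO. Every library at 1% lay below every library of its background at 20%. The fold changes were -0.15 (SE 0.04, adjusted p = 0.0079), -0.30 (SE 0.04, adjusted p = 1e-05) and -0.63 (SE 0.04, adjusted p = 8.1e-11), and after median-of-ratios scaling -0.18, -0.22 and -0.26. The DBA/2 call ended without DBA/2 20% replicate 2 or 1% replicate 1, with adjusted p up to 0.081.

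Cyc1, the cytochrome c1 that hands electrons to cytochrome c (chr15:76343523-76346260), did not share one direction. In DBA/2 it read 130 and 129 CPM at 20% and 139 and 154 at 1% (0.17, SE 0.06, adjusted p = 0.016), a call that ended without DBA/2 20% replicate 1 or 2 or 1% replicate 2 (adjusted p up to 0.23). In the labelled KO it fell from 132 and 145 to 88.2 and 93.7 CPM, by 0.60 on the log2 scale (SE 0.06, adjusted p = 1e-08), and by 0.24 after median-of-ratios scaling. Uqcrb, which lies near the ubiquinone site, read 54.4 and 52.7 against 59.6 and 60.7 CPM in DBA/2. It fell from 65.9 and 62.6 to 52.3 and 43.3 CPM in Hif1a-line wild type (-0.42, SE 0.08, adjusted p = 0.00023) and from 67.9 and 65.0 to 42.9 and 41.7 in the labelled KO (-0.64, SE 0.08, adjusted p = 5.4e-07). Both Uqcrb calls were firm, but copies cover 62.8% of its transcript. The core protein Uqcrc2 fell firmly in Hif1a-line wild type, from 103 and 90.8 to 80.9 and 76.6 CPM (-0.29, SE 0.06, adjusted p = 0.00054). In DBA/2 the hinge protein Uqcrh (0.27) and the Rieske iron-sulfur protein Uqcrfs1 (0.30) rose firmly.

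Small subunits of complex III did not share a direction in the labelled KO. Besides Uqcrb, Uqcr11 read lower there, at 67.7 and 76.3 CPM at 20% and 59.4 and 64.3 at 1% (-0.21, SE 0.09, adjusted p = 0.038), a call lost without labelled KO 20% replicate 2 or 1% replicate 1 (adjusted p up to 0.29), and it stood at 0.15, not called, after median-of-ratios scaling. Uqcrq and Uqcr10 were called higher. Uqcrq read 55.2 and 63.7 CPM at 20% and 71.0 and 66.8 at 1% (0.21, SE 0.09, adjusted p = 0.034). Uqcr10 read 43.7 and 44.4 against 51.4 and 47.9 CPM (0.17, SE 0.06, adjusted p = 0.022). Both calls ended without labelled KO 20% replicate 1 or 1% replicate 1, with adjusted p up to 0.33 and 0.19. After median-of-ratios scaling the fold changes were 0.58 and 0.53. In DBA/2, Uqcr11 had 65.3 and 69.0 against 55.1 and 58.2 CPM (-0.24, SE 0.09, adjusted p = 0.03), a call lost without DBA/2 20% replicate 2 or either DBA/2 library at 1% (adjusted p up to 0.16).

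In complex IV, Cox6b2, the testis form of subunit VIb (chr7:4751792-4753094), was the one subunit gene called higher at 1% oxygen in all 3 oxygen comparisons on CPM. It read 12.9 and 10.5 CPM at 20% and 18.8 and 18.7 at 1% in DBA/2, 7.29 and 9.94 against 14.6 and 16.2 in Hif1a-line wild type, and 10.8 and 12.4 against 24.9 and 25.5 in the labelled KO. All 6 libraries at 20% lay below all 10 at 1%, the C57BL/6 background included at 20.6 and 20.6 CPM in wild type and 21.3 and 21.0 in the labelled Top1mt KO. The fold changes were 0.64 (SE 0.12, adjusted p = 0.00013), 0.78 (SE 0.12, adjusted p = 1.8e-05) and 1.06 (SE 0.12, adjusted p = 8.1e-08), and after median-of-ratios scaling 0.60, 0.86 and 1.41. All 3 were firm. Its partner Cox6b1 (chr7:30616861-30626151) read 119 and 116 against 116 and 109 CPM in DBA/2, and fell from 121 and 120 to 102 and 107 in Hif1a-line wild type (-0.20, SE 0.06, adjusted p = 0.0058), which was not called after median-of-ratios scaling (-0.11). As a share of the summed CPM per kb of Cox6b2 and Cox6b1, Cox6b2 was 10.9% and 9.20% in DBA/2 at 20% oxygen and 15.3% and 16.1% at 1%. It was 6.32% and 8.51% against 13.8% and 14.5% in Hif1a-line wild type, and 8.35% and 9.26% against 18.2% and 18.4% in the labelled KO. A share within a library does not depend on the scaling.

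Cox7a1, the muscle form of subunit VIIa (chr7:30184144-30186078), was called in DBA/2 and in neither of the other oxygen comparisons. It read 5.03 and 4.95 CPM at 20% and 9.88 and 9.84 at 1% there (0.86, SE 0.13, adjusted p = 2.2e-05). In Hif1a-line wild type it read 5.27 and 5.07 against 5.39 and 6.42 CPM, and the difference between the responses of these 2 wild types was itself called (-0.70, SE 0.19, adjusted p = 0.0057). The 12 striated muscle markers summed to 28.0 to 30.5 CPM in DBA/2 at 20% and 39.8 to 40.6 at 1%, and their part in this result was not tested. Its partner Cox7a2 rose from 112 and 112 to 128 and 131 CPM in DBA/2 (0.21, SE 0.06, adjusted p = 0.0075). The Cox7a1 share of the summed CPM per kb of both went from 6.26% to 10.3% there. Cox7a2l, related to them and known for joining complexes III and IV into supercomplexes, rose from 58.9 and 58.2 to 80.5 and 79.5 CPM in DBA/2 (0.44, SE 0.05, adjusted p = 1.1e-06). In Hif1a-line wild type it read 55.1 and 52.5 against 60.5 and 59.0 CPM (0.15, SE 0.05, adjusted p = 0.028), a call lost without wild type 20% replicate 2 or 1% replicate 1 (adjusted p up to 0.19).

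Among the falling genes of complex IV, Cox5b, which binds zinc, read 86.0 and 87.8 against 64.8 and 69.7 CPM in DBA/2 (-0.37, SE 0.07, adjusted p = 8.7e-05) and 76.7 and 78.0 against 61.3 and 66.9 in Hif1a-line wild type (-0.27, SE 0.07, adjusted p = 0.0019). It was also called lower in the labelled KO on CPM (-0.35), but stood at 0.01 after median-of-ratios scaling. Cox6a1 fell firmly in both wild types, from 185 and 183 to 137 and 145 CPM in DBA/2 (-0.38, SE 0.05, adjusted p = 1.1e-06) and from 164 and 160 to 135 and 140 in the Hif1a line (-0.23, SE 0.05, adjusted p = 0.00032). In the labelled KO it read 160 and 170 against 159 and 154 CPM (-0.07 on CPM, not called, and 0.29, called higher, after median-of-ratios scaling).

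Cox7b2, the testis form of subunit VIIb (chr5:71442824-71548205), was set beside Cox7b (chrX:106015700-106022450) as its share of their summed CPM per kb. That share was 56.6% in DBA/2 at 20% oxygen and 57.9% at 1%, and 45.0% and 46.2% in Hif1a-line wild type. Without this length correction Cox7b2 had lower CPM than Cox7b in every library. It read 24.1 and 26.5 against 38.6 and 33.1 CPM in DBA/2 at 20% oxygen. In the labelled KO it read 19.9 and 14.7 CPM at 20% and 6.86 and 8.92 at 1%, a firm fall by 1.03 on the log2 scale (SE 0.15, adjusted p = 3.6e-06), and by 0.70 after median-of-ratios scaling. Its share there went from 42.5% and 35.1% to 16.2% and 21.8%. Cox7b read 49.6 and 50.1 against 65.4 and 59.2 CPM (0.31, SE 0.10, adjusted p = 0.0058), a call lost without labelled KO 1% replicate 1 (adjusted p = 0.074). Cox8c, the testis form of subunit VIII, read 3.60 and 3.27 against 1.92 and 2.34 CPM (-0.50, SE 0.15, adjusted p = 0.0037), but was not called after median-of-ratios scaling (-0.24, adjusted p = 0.13). The summed germ cell markers in these libraries were 4083 to 4319 CPM at 20% and 1975 to 2095 at 1%, and their part in these falls was not tested.

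**Figure D4:**
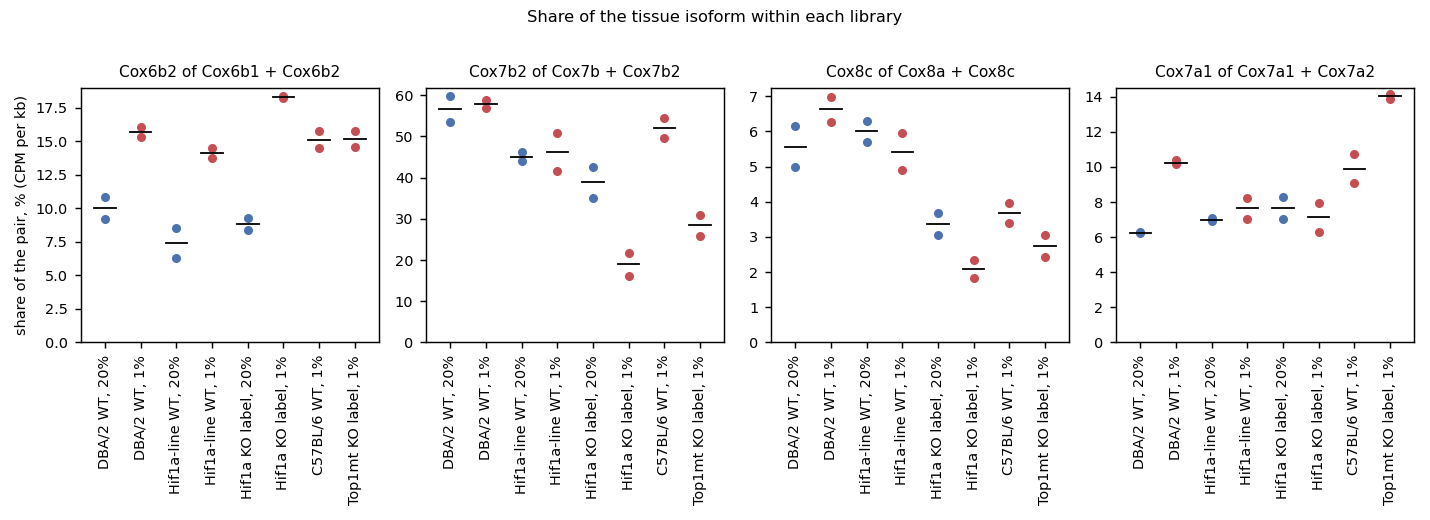
Share of the tissue form in the summed CPM per kb of the tissue form and its widely expressed partner, in percent. Panels show Cox6b2, Cox7b2, Cox8c and Cox7a1, with 1 point per library in the 8 groups. The Cox6b2 share is 13.8% to 18.4% in the libraries at 1% oxygen and 6.32% to 10.9% in those at 20%, and the Cox7b2 share is lowest in the labelled Hif1a KO at 1% oxygen, at 16.2% and 21.8%.

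In complex V, genes of 1 complex went both ways in DBA/2. Atp5f1 (subunit b of the stator) rose from 179 and 179 to 233 and 239 CPM (0.40, SE 0.05, adjusted p = 1e-06). Atp5c1, the gamma subunit that turns in the rotor, rose from 160 and 158 to 196 and 188 CPM (0.27, SE 0.05, adjusted p = 0.00032), and Atp5j2 (0.25) and the catalytic-head gene Atp5a1 (0.17) rose firmly too. Atp5o fell firmly, from 301 and 302 to 259 and 265 CPM (-0.20, SE 0.05, adjusted p = 0.0012). In Hif1a-line wild type Atp5c1 was called the other way on CPM, at 160 and 150 against 147 and 130 CPM (-0.16, SE 0.05, adjusted p = 0.021), as was Atp5j, a stator subunit (-0.16, beside 0.17 in DBA/2). Both calls were lost without wild type 20% replicate 1 or 1% replicate 2 (adjusted p up to 0.32 and 0.13) and after median-of-ratios scaling (-0.07 and -0.08). Atp5f1 read 154 and 154 against 177 and 161 CPM (0.13, SE 0.05, adjusted p = 0.028), a call lost without either wild type library at 20% or 1% replicate 1 (adjusted p up to 0.31). Atp5l read 5.94 and 5.98 against 8.02 and 8.14 CPM (0.38, SE 0.12, adjusted p = 0.01), which was firm. Of the 17 genes of complex V, 11 were called lower in the labelled KO on CPM (all genes 54.7%), and 1 lower and 11 higher after median-of-ratios scaling (all genes 35.3% and 40.1%). The 1 was Atp5o (-0.50 on CPM, -0.14 scaled).

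In DBA/2 and the Hif1a-line wild type the oxygen responses differed for 14 of the 44 genes, all lower in the Hif1a line (31.8%, against 30.9% of all genes), with 0 higher (0.00%, against 15.1%). After median-of-ratios scaling 8 were lower (18.2%, against 20.1%) and 3 higher (6.82%, against 21.0%). At an unadjusted p under 0.05 limma had 1 higher and 16 lower, edgeR called 7 higher and 8 lower (all genes 21.9% and 20.6%), and DESeq2 2 and 6 (18.1% and 15.6%). Of the 14, 8 were firm: Atp5c1 (-0.43), Atp5j (-0.33), Cox7a1 (-0.70), Sdhb (-0.34), Sdhd (-0.35), Uqcrb (-0.59), Uqcrc2 (-0.51) and Uqcrfs1 (-0.41), against 18.4% of all genes. Without DBA/2 1% replicate 2 or Hif1a-line wild type 1% replicate 1, 1 gene was called higher. The backgrounds differ in strain and in what the library names carry, which cannot be told apart. Of the 24 fibroblast markers 18 were called higher and 3 lower in this same difference, with a median of 1.31, and of the 16 germ cell markers 5 and 2. Their part in it was not tested.

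For context, Cox4i2, the form of subunit IV known to rise in low oxygen, read 0.419 and 0.427 CPM at 20% and 5.89 and 5.03 at 1% in DBA/2, 0.551 and 0.526 against 3.06 and 5.01 in Hif1a-line wild type, and 0.168 and 0.474 against 7.37 and 6.74 in the labelled KO. It rose in each (2.18, 1.68 and 2.62, SE 0.17, adjusted p = 1.6e-09, 6.9e-08 and 1.7e-11). Cox4i1 stayed between 319 and 448 CPM over all libraries. It was not called in DBA/2 (0.06) and was called lower on CPM in Hif1a-line wild type (-0.13), which was not kept after median-of-ratios scaling (-0.04). In the labelled KO it was called lower on CPM (-0.23) and higher after median-of-ratios scaling (0.14).

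The labelled Hif1a KO was compared with wild type of the same line at each oxygen level. These comparisons and the oxygen comparison of the labelled KO share libraries and are not independent. At 20% oxygen 3 of the 44 genes were called higher (6.82%, against 12.9% of all genes) and 1 lower (2.27%, against 9.55%), and none was firm (all genes 5.58% higher and 1.44% lower). limma gave 8 higher and 4 lower at an unadjusted p under 0.05, edgeR called 4 and 1 (all genes 13.7% and 7.61%), and DESeq2 2 and 1 (10.7% and 5.53%). Cox6b2 read 7.29 and 9.94 CPM in wild type and 10.8 and 12.4 in the labelled KO (0.40, SE 0.12, adjusted p = 0.019), and Cox8c 6.19 and 5.26 against 3.60 and 3.27 (-0.60, SE 0.15, adjusted p = 0.0061). Both calls were lost without wild type replicate 1 or labelled KO replicate 2, with adjusted p up to 0.33 and 0.086. Cox7b read 42.4 and 38.9 against 49.6 and 50.1 CPM (0.29, SE 0.10, adjusted p = 0.037), and that call was lost without any 1 of the 4 libraries compared (adjusted p up to 0.22). Cox6b1 read 121 and 120 against 132 and 136 CPM (0.16, SE 0.06, adjusted p = 0.048), and its call was lost in 10 of the 16 fits without 1 library, the 4 compared among them (adjusted p up to 0.21). Without wild type 20% replicate 1 the counts were 0 and 0, without replicate 2 they were 1 higher and 2 lower, without labelled KO 20% replicate 2 there was 1 higher, and without either wild type library at 1% there were 3 lower.

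At 1% oxygen 10 genes were called higher (22.7%, against 28.3% of all genes) and 18 lower (40.9%, against 49.1%) on CPM. After median-of-ratios scaling 27 were higher (61.4%, against 40.1%) and 7 lower (15.9%, against 33.7%). The median was -0.10 beside -0.21 over all genes on CPM and 0.19 beside 0.03 after median-of-ratios scaling. Firm calls went in both directions, 8 higher and 7 lower (all genes 23.7% and 32.7%). In these libraries all 24 fibroblast markers were called higher and all 16 germ cell markers lower. The fibroblast sum was 28405 to 36094 CPM in wild type and 60934 to 62574 in the labelled KO, and its part in the subunit results was not tested. The oxygen response itself differed between the labelled KO and its wild type for 17 of the 44 genes (38.6%, against 58.0% of all genes, tested by the interaction term in limma), 3 higher and 14 lower. After median-of-ratios scaling it differed for 20 (45.5%, against 54.2% of all genes), 17 higher and 3 lower. The firm ones were 1 higher, Cox7b, and 3 lower, Cox7b2, Atp5l and Cyc1 (all genes 33.3% in either direction).

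The firm rise with the smallest adjusted p was that of Cox7b, the widely expressed form of subunit VIIb. Cox7b read 37.5 and 35.4 CPM in wild type and 65.4 and 59.2 in the labelled KO (0.76, SE 0.10, adjusted p = 6.1e-07). Cox6b2 read 14.6 and 16.2 against 24.9 and 25.5 (0.68, SE 0.12, adjusted p = 2.9e-05), Uqcrq 46.0 and 56.5 against 71.0 and 66.8 (0.43, SE 0.09, adjusted p = 0.00021), and Uqcr10 39.1 and 40.6 against 51.4 and 47.9 CPM (0.31, SE 0.06, adjusted p = 0.00021). No labelled KO library overlapped a wild type library for these 4 genes. Cox8a (0.28), Cox6b1 (0.27), Atp5h (0.20) and Cox6a1 (0.18) completed the 8.

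Among the firm falls were the testis forms Cox7b2 and Cox8c, whereas Cox6b2 was among the rises. Cox7b2 fell from 21.1 and 13.6 to 6.86 and 8.92 CPM (-1.02, SE 0.15, adjusted p = 4.6e-06). Its share of the summed CPM per kb of Cox7b2 and Cox7b was 50.9% and 41.6% in wild type and 16.2% and 21.8% in the labelled KO. Cox8c fell from 4.96 and 4.45 to 1.92 and 2.34 CPM (-0.87, SE 0.15, adjusted p = 2e-05). Atp5o fell from 254 and 257 to 181 and 181 CPM (-0.50, SE 0.05, adjusted p = 8.7e-09), Cyc1 from 124 and 130 to 88.2 and 93.7 (-0.48, SE 0.06, adjusted p = 3.1e-07), and Sdha from 288 and 287 to 214 and 220 (-0.40, SE 0.04, adjusted p = 2.7e-08). After median-of-ratios scaling these 3 were smaller, at -0.21, -0.20 and -0.12, as was Atp5l (-0.58 on CPM, -0.34 scaled). Atp5g1 (-0.42), 1 of 3 genes for subunit c of the ring, was the last of the 7, and fell by 0.14 after median-of-ratios scaling. Of the summed CPM per kb of the 3 subunit c genes, Atp5g3 held a mean of 77.8% to 82.3% in every group. Atp5g1 held 9.28% to 12.9%, and Atp5g2 the rest.

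**Figure D5:**
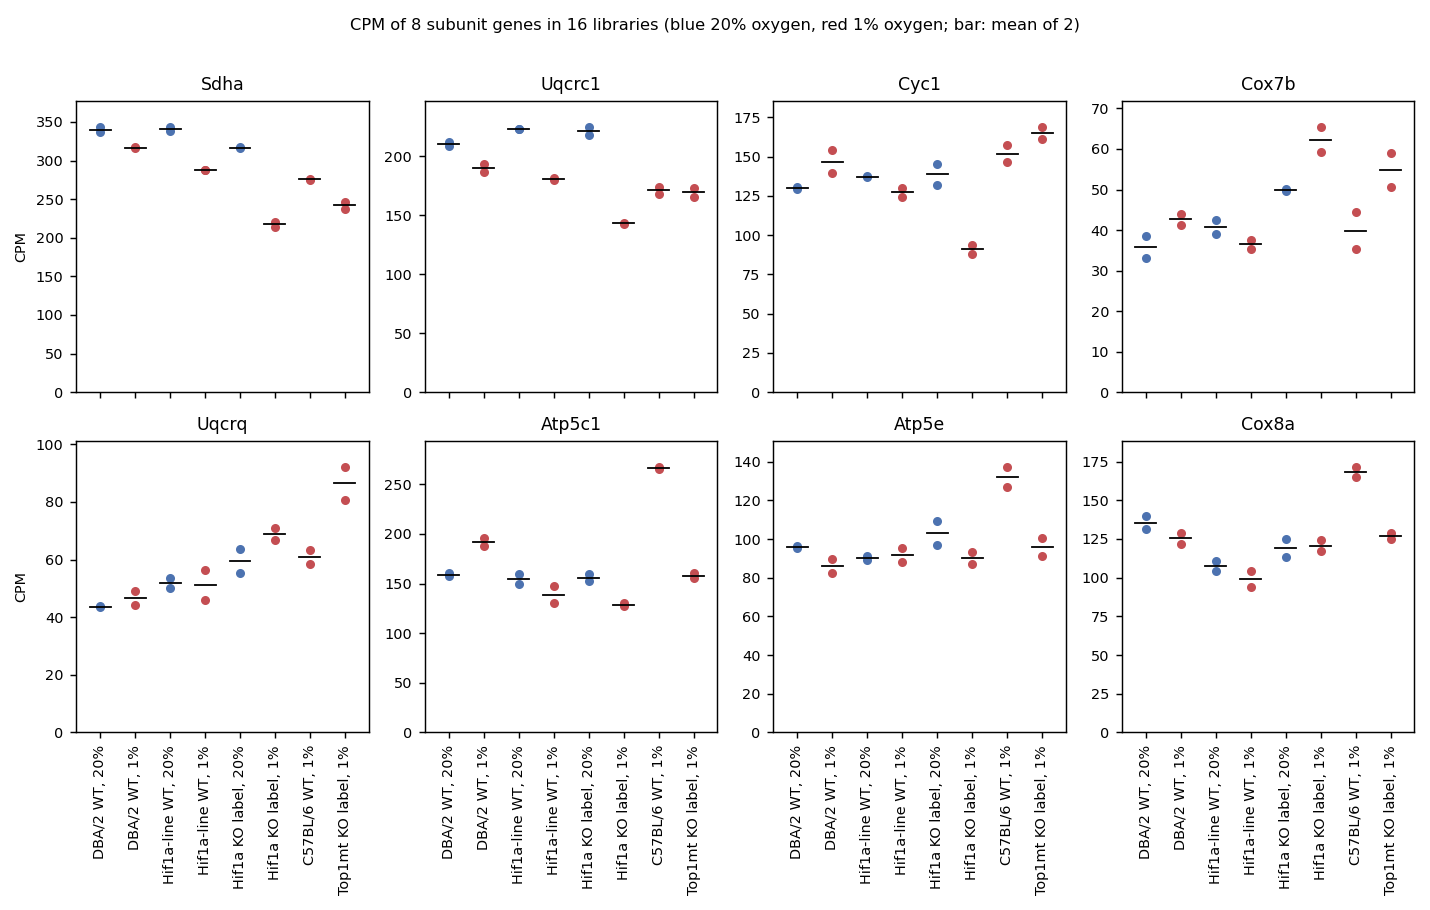
CPM per library for Sdha, Uqcrc1, Cyc1, Cox7b, Uqcrq, Atp5c1, Atp5e and Cox8a in the 8 groups, with a bar at each mean of 2 libraries, each panel with its own axis. Sdha, Uqcrc1 and Cyc1 are lowest in the labelled Hif1a KO at 1% oxygen, and Atp5c1 and Atp5e are highest in C57BL/6 wild type.

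The labelled Top1mt KO was compared with C57BL/6 wild type at 1% oxygen. Top1mt encodes the mitochondrial topoisomerase I, which acts on mitochondrial DNA. Of the 44 genes 10 were called higher (22.7%, against 25.2% of all genes) and 9 lower (20.5%, against 33.2%), with a median of 0.02 beside -0.04 over all genes, and 4 and 8 were firm (all genes 17.3% and 23.8%). Without wild type replicate 1 or labelled KO replicate 1 the count of higher genes was 5 or 6. All 24 fibroblast markers were called higher here too, from 22294 to 22364 CPM in wild type to 42239 to 43059 in the labelled KO, and all 16 germ cell markers lower, from 4127 to 4186 to 2709 to 2749 CPM. Their part in the subunit results was not tested.

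Atp5c1 (chr2:10056016-10080510) showed the fall with the smallest adjusted p among the subunit genes, from 267 and 266 CPM in wild type to 161 and 155 in the labelled KO (-0.75, SE 0.05, adjusted p = 8.6e-10). The wild type libraries stood above all 14 others for this gene, whose next highest was 196 CPM in DBA/2 at 1%, and the labelled KO lay within the range of the other groups. Atp5e, the epsilon subunit, showed the same layout, at 137 and 127 CPM in wild type and 101 and 91.2 in the labelled KO (-0.46, SE 0.07, adjusted p = 8.5e-06), against at most 109 CPM elsewhere. Cox8a fell from 165 and 171 to 129 and 125 CPM (-0.41, SE 0.06, adjusted p = 1e-05). Against DBA/2 wild type at 1% oxygen, a comparison that shares the C57BL/6 wild type libraries, Atp5e (0.61, SE 0.07, adjusted p = 2e-07), Atp5c1 (0.47, SE 0.05, adjusted p = 3.8e-07) and Cox8a (0.42, SE 0.06, adjusted p = 5.9e-06) were firmly higher in C57BL/6 wild type.

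Of the testis forms, Cox7b2 and Cox8c fell in the labelled Top1mt KO as well. Cox7b2 read 23.8 and 22.8 CPM in wild type and 11.2 and 12.3 in the labelled KO (-0.93, SE 0.15, adjusted p = 3.2e-05). Its mean share of the summed CPM per kb of Cox7b2 and Cox7b was 52.0% against 28.5%. Cox8c read 4.83 and 5.91 against 3.37 and 2.59 CPM (-0.68, SE 0.15, adjusted p = 0.00049). Cox6b2 did not follow them, with a fold change of 0.04 (adjusted p = 0.81) and mean shares, by CPM per kb, of 15.1% and 15.2%. Sdha (-0.19), Cox7a2l (-0.23) and Atp5f1 (-0.23) fell firmly. Uqcrq rose from 58.3 and 63.5 to 80.9 and 92.1 CPM (0.50, SE 0.09, adjusted p = 7.9e-05) and Cox7b from 44.4 and 35.3 to 59.0 and 50.7 (0.46, SE 0.10, adjusted p = 0.00045), and Atp5j2 (0.21) and Atp5a1 (0.17) also rose firmly. Cox7a1 read 10.1 and 8.60 against 13.8 and 11.4 CPM (0.39, SE 0.13, adjusted p = 0.017), a call lost without wild type replicate 2 or labelled KO replicate 1 (adjusted p up to 0.19). Atp5g2 read 11.5 and 13.2 against 15.7 and 14.6 CPM (0.28, SE 0.11, adjusted p = 0.037), lost without wild type replicate 1 or either labelled KO library (adjusted p up to 0.27).

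Wild types were also compared between backgrounds, where strain and library handling cannot be told apart and which share libraries with the oxygen comparisons. The fibroblast sum was 7106 to 8903 CPM in DBA/2 and 11384 to 12356 in the Hif1a-line wild type at 20% oxygen, and 6638 to 7324 in DBA/2 and 22294 to 22364 in C57BL/6 wild type at 1%. Its part in these results was not tested. At 20% oxygen, Hif1a-line against DBA/2 wild type, 4 of the 44 genes were called higher (9.09%, against 26.4% of all genes) and 10 lower (22.7%, against 22.6%), with a median of -0.06 beside 0.03. The firm calls were 1 higher, Atp5j2, at 69.5 and 69.3 CPM in DBA/2 and 86.6 and 86.4 in the Hif1a line (0.31, SE 0.05, adjusted p = 5.4e-05), and 6 lower (all genes 15.3% and 14.2%). Among the latter were Atp5l, at 10.7 and 10.8 against 5.94 and 5.98 CPM (-0.75, SE 0.12, adjusted p = 3.6e-05), Atp5s, at 10.5 and 10.2 against 6.98 and 7.36 (-0.48, SE 0.11, adjusted p = 0.0017), and Cox8a (-0.33). Calls for Uqcrb (0.26), Uqcrq (0.24), Sdhb (0.15), Cox7b2 (-0.47) and Cox6b2 (-0.41) each ended without at least 1 library of both groups, with adjusted p up to 0.1, 0.17, 0.13, 0.097 and 0.19. The libraries were DBA/2 replicate 2 and Hif1a-line replicate 1 for Uqcrb, both DBA/2 libraries and Hif1a-line replicate 2 for Uqcrq, DBA/2 replicate 1 and Hif1a-line replicate 2 for Sdhb, DBA/2 replicate 2 and both Hif1a-line libraries for Cox7b2, and replicate 1 of each for Cox6b2. Without DBA/2 replicate 2 the count of higher genes was 2.

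At 1% oxygen, C57BL/6 against DBA/2 wild type, 10 were called higher (22.7%, against 28.9% of all genes) and 13 lower (29.5%, against 32.9%). After median-of-ratios scaling 15 were higher (34.1%, against 33.5%) and 7 lower (15.9%, against 27.1%), and 6 and 5 were firm (all genes 21.0% and 23.4%). Without DBA/2 replicate 2 the count of lower genes was 7, and without C57BL/6 replicate 2 it was 8. Besides Atp5e, Atp5c1 and Cox8a, the firm rises were Uqcrq (0.38), Cox6a1 (0.30) and Atp5h (0.20). The firm falls were Atp5l (-0.57), Atp5s (-0.44), Uqcrfs1 (-0.27), Sdha (-0.20) and Atp5o (-0.19). Atp5l and Atp5s were thus lower than in DBA/2 in both comparisons of backgrounds, which share no library. Copies cover 72.2% of the Atp5l transcript, and whether reads of each strain map alike was not tested. Cox7b2 (-0.43, adjusted p = 0.02) lost its call without any 1 of the 4 libraries compared, and Cox8c (-0.41, adjusted p = 0.021) without DBA/2 replicate 2 or C57BL/6 replicate 1, with adjusted p up to 0.092 and 0.18.

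Lists of other genes of oxidative phosphorylation are read beside the shares of all genes called at 1% oxygen: 31.8% higher and 25.5% lower in DBA/2, 18.4% and 34.6% in Hif1a-line wild type, and 25.2% and 54.7% in the labelled KO (40.1% and 35.3% after median-of-ratios scaling). Of 36 tested assembly factors of complexes II to V, 12 were called higher and 3 lower at 1% oxygen in DBA/2, 0 and 15 in Hif1a-line wild type, and 4 and 14 in the labelled Hif1a KO (14 and 7 after median-of-ratios scaling). Where limma called 0 higher in Hif1a-line wild type, it called 2 higher and 8 lower after median-of-ratios scaling, edgeR 2 and 8, and DESeq2 2 and 4. Those with the smallest adjusted p included Sdhaf1, an assembly factor of complex II, which fell by 0.91 on the log2 scale in Hif1a-line wild type (SE 0.12, adjusted p = 2.6e-06), and Atpaf1, of complex V, which rose by 0.49 in DBA/2 (SE 0.11, adjusted p = 0.00066). Coa7 fell by 1.24 in the labelled KO at 1% against 20% oxygen (SE 0.09, adjusted p = 8.3e-11), and Cox10, which makes heme for complex IV, by 0.83 (SE 0.06, adjusted p = 2.1e-10). Of 35 nuclear subunits of complex I, 9 were called higher and 3 lower in DBA/2, 3 and 17 in Hif1a-line wild type, and 3 and 20 in the labelled KO, where median-of-ratios scaling gave 20 and 4. Of 7 tested genes of the mitochondrial genome, 7 were called higher in DBA/2, 3 in Hif1a-line wild type, and 6 were called lower on CPM in the labelled KO, where median-of-ratios scaling gave 1 higher. Of 77 mitochondrial ribosomal proteins, 60 were called lower and 1 higher in the labelled KO on CPM, and 35 and 13 after median-of-ratios scaling, while the subunit genes turned from 27 lower to 25 higher.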

How the data were processed

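Polyadenylated RNA of 16 libraries was sequenced from stranded libraries, per the labels' protocols. The authors deposited 1 table of CPM values, reads per 1000000 reads on the tabled genes. The submitters' processing notes name STAR 2.6.0c, cutadapt 1.16, HTSeq 0.11.2, DESeq2 1.22.2 and mm10, without their roles. The strand setting, the annotation and the handling of reads shared between genes are not given in the sources used here. Dividing the deposited CPM by the value of 1 read gave whole reads for 100% of values (within 0.01 read), which served as counts for edgeR and DESeq2. Depth was 11942104 to 25659895 reads, so that 3 reads, the limit a count of 0 allows, were 0.117 to 0.251 CPM (counting error only).

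Genes with at least 1 CPM in at least 2 libraries (14841 of 21924) were tested with limma 3.58.1 (R 4.3.3) on log2(CPM + 1), with trend, over all 8 groups and 10 comparisons. The pseudocount understates changes of low genes. The Benjamini-Hochberg threshold was 0.05. Alternatives were a pseudocount of 0.1, no low-value filter, median-of-ratios scaling, edgeR 4.0.16, DESeq2 1.42.0, a replicate block and each library left out. limma, edgeR and DESeq2 were also run on simulated counts in which a small set of genes changed in 1 group. These held no broad shift of all genes, so that run does not test the choice of scaling. Levels per kb use median transcript lengths, and coordinates come from GENCODE M21 (GRCm38). Copies were sought with BLAST 2.17.0 (at least 95% identity over at least 50 bases). Promoters are from RefSeq (GRCm38.p6). The subunit genes and the gene lists were chosen with earlier results of these data known. Per comparison, up to 4 largest rises and 4 largest falls are named among called genes of at least 5 CPM in 1 group with no overlap of libraries, beside complex II, Cyc1, Cox7a2l, tissue forms and their partners always. Of context lists, up to 2 called genes each way with the smallest adjusted p qualified. Other names were chosen after their values were seen.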

Additional observations from a re-analysis of the deposited data

Results flagged for a closer look

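The oxygen responses of the labelled Hif1a KO and its wild type were set against each other in 1 test per gene, and 17 of the 44 subunit genes differed between them at an adjusted p under 0.05 (limma, Benjamini-Hochberg). A negative value means a lower response in the labelled KO. They were 38.6% of the subunit genes, against 58.0% of all genes, with 14 lower and 3 higher (of all 14841 genes 5784 were lower and 2819 higher). After median-of-ratios scaling the split turned to 3 lower and 17 higher (3081 and 4966 of all genes). The differences called under both scalings were Cox7b2 (-0.95), Atp5l (-0.73) and Cyc1 (-0.49) among the lower, and Cox7b (0.47), Uqcr10 (0.23) and Cox6a1 (0.16), all 3 higher. After median-of-ratios scaling these were -0.70, -0.50, -0.22, 0.74, 0.50 and 0.44. Uqcr10 lost its call without any 1 of 6 libraries of the Hif1a line (adjusted p up to 0.16) and Cox6a1 without any 1 of 10 libraries (up to 0.18). The other 11 were not called lower after median-of-ratios scaling: Atp5o (-0.37), Uqcrc1 (-0.32), Atp5f1 (-0.31), Cox7c (-0.31), Sdha (-0.30), Atp5mpl (-0.29), Atp5g1 (-0.26), Cox5a (-0.23), Cox7a2 (-0.22), Cox6c (-0.22) and Atp5a1 (-0.17). Without Hif1a-line wild type 20% replicate 2 the count of lower genes was 9. Of higher genes there was 1 without wild type 1% replicate 1, labelled KO 20% replicate 1 or labelled KO 1% replicate 1, and 6 without wild type 1% replicate 2.

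In the Hif1a-line wild type, 14 subunit genes responded to 1% oxygen less, or fell more, than in DBA/2 (31.8%, against 30.9% of all genes). Those kept under both scalings and without each library were Cox7a1 (-0.70), Uqcrb (-0.59), Uqcrc2 (-0.51), Atp5c1 (-0.43), Uqcrfs1 (-0.41), Sdhd (-0.35), Sdhb (-0.34) and Atp5j (-0.33). Not kept after median-of-ratios scaling were Cox7b (-0.40), Cox7a2l (-0.30), Cyc1 (-0.28), Atp5f1 (-0.27), Atp5j2 (-0.21) and Uqcrc1 (-0.16).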

How the results depend on the processing

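Direction and call held for most results: with a pseudocount of 0.1 (187 held and 1 lost its call), with the replicate block (182 held and 6 gained a call) and without the low-value filter (164 held, 5 gained and 19 lost a call). Scaling moved more. Counts of subunit genes called higher under median-of-ratios scaling, edgeR and DESeq2 were 9, 10 and 7 for oxygen in Hif1a-line wild type (4 on CPM), 25, 23 and 23 in the labelled Hif1a KO (4), 27, 24 and 27 for the labelled KO against wild type at 1% (10), 17, 13 and 12 for the difference of their oxygen responses (3), and 3, 7 and 2 for that of the Hif1a line and DBA/2 (0). Counts called lower were 7, 7 and 6 (14), 6, 6 and 6 (27), 7, 8 and 5 (18), 3, 3 and 1 (14), and 8, 8 and 6 (14) in the same order, and 7, 7 and 5 (13) for C57BL/6 against DBA/2. Calls over all 14841 genes moved with the scaling too. With median-of-ratios scaling, 24.6% of them were called higher and 24.8% lower for oxygen in Hif1a-line wild type. In the labelled KO it was 40.1% and 35.3%, and for the labelled KO against wild type at 1% 40.1% and 33.7%. For the difference of backgrounds it was 21.0% and 20.1%, and for C57BL/6 against DBA/2 33.5% and 27.1%. For the difference of genotype responses, edgeR called 4240 genes higher and 3448 lower, and DESeq2 4032 and 2514. The cause was not tested. Without the low-value filter, 2 subunit genes were called higher for oxygen in the labelled KO, and 1 higher and 2 lower for the labelled KO at 20% oxygen.

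Same-numbered replicates did not pair: correlations of their deviations ran from -0.206 to 0.274. With the replicate block, 3 subunit genes were lower in the labelled Hif1a KO at 20% oxygen (1 without it).

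Firm calls, a rule added after seeing the data, are given as higher and lower, with shares of all genes in brackets. For oxygen they numbered 11 and 3 in DBA/2 (21.3% and 17.8%). In Hif1a-line wild type they numbered 2 and 7 (11.8% and 21.1%), and in the labelled KO 1 and 6 (21.0% and 34.6%). For the labelled Hif1a KO against wild type they were 0 and 0 at 20% (5.58% and 1.44%). At 1% they were 8 and 7 (23.7% and 32.7%), and for the labelled Top1mt KO 4 and 8 (17.3% and 23.8%). The difference of genotype responses had 1 and 3 (33.3% in either direction), and that of the backgrounds 0 and 8 (10.5% and 18.4%). The backgrounds had 1 and 6 at 20% (15.3% and 14.2%) and 6 and 5 at 1% (21.0% and 23.4%).

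Mean subunit sums after median-of-ratios scaling were 5372 and 5421 in DBA/2 at 20% and 1% oxygen, 5197 and 5234 in Hif1a-line wild type and 5255 and 5872 in the labelled Hif1a KO. They were 5642 in C57BL/6 wild type and 5816 in the labelled Top1mt KO.

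With 1 library left out (the lone library of a group then assumed to vary like the others), counts of subunit genes higher and lower, and of all genes called, ranged over 12 to 18, 3 to 9 and 6932 to 8855 for oxygen in DBA/2; 2 to 5, 8 to 15 and 6175 to 7966 in Hif1a-line wild type; 1 to 4, 21 to 28 and 10972 to 12003 in the labelled KO. They ranged over 0 to 4, 0 to 3 and 1508 to 3968 for the labelled KO at 20% oxygen; 8 to 10, 14 to 19 and 10539 to 11528 at 1%; 5 to 10, 9 to 10 and 7350 to 8912 for the labelled Top1mt KO. For the difference of genotype responses they were 1 to 6, 9 to 14 and 7537 to 8753, for that of the backgrounds 0 to 1, 11 to 15 and 5650 to 6956, for the backgrounds at 20% 2 to 4, 7 to 11 and 5553 to 7624, and at 1% 8 to 11, 7 to 16 and 7873 to 9460.

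Signs turned under median-of-ratios scaling, edgeR and DESeq2 for 26, 24 and 26 of the 44 subunit genes for oxygen in the labelled KO, 19, 18 and 19 for the labelled KO at 1%, and 18, 17 and 18 for the difference of genotype responses. Among the genes named by rule, and where 1 of the 2 fits called the gene, these were for oxygen in the labelled KO Cox6a1 (0.29, 0.24, 0.29), Cox6b1 (0.27, 0.23, 0.27), Cox7a2 (0.20, 0.16, 0.20), Sdhc (0.11, 0.066, 0.11) and Sdhd (0.25, 0.21, 0.26). For the labelled KO at 1% they turned for Cox7a2l (0.24, 0.21, 0.24), Sdhb (0.18, 0.14, 0.17), Sdhc (0.19, 0.16, 0.19) and, with median-of-ratios scaling and DESeq2, Cox7a2 (0.003, 0.003). For the difference of genotype responses they turned for Cox7a2 (0.053, 0.004, 0.052) and, called higher with median-of-ratios scaling, Cox7a2l (0.18) and Sdhc (0.17), while Atp5a1, Cox5a and Cox6c, called lower on CPM, turned too (0.11, 0.05 and 0.06). Depth limits Cox6a2 and Cox8b, at or near 0 reads.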
